A study of Mus musculus with 6 samples.

Results

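The cells described here are resting Mmp8-positive mature neutrophils of the mouse skull bone marrow, 3147 of the 37576 cells that passed quality control and 17.9% of the 17559 mature neutrophils among them. They were chosen by unique molecular identifiers (UMIs, the counted transcripts) in each cell. A cell had 500 to 5000 detected genes, over 500 UMIs and under 25% of its UMIs from mitochondrially encoded genes. The calcium-binding alarmins S100a8 and S100a9 made up at least 2% of its UMIs, the secondary granule genes Ltf, Ngp and Camp together under 1%, and the proliferation genes Mki67 and Top2a had 0 UMIs. The interferon-induced genes Ifit1 and Ifit3 together had under 2 UMIs, the cytokine gene Il1b under 5 UMIs, and Mmp8 at least 2 UMIs. These measured values set the population, so the levels of the chosen genes are a description and not a finding. Mature neutrophils met the cuts on S100a8 with S100a9, on granule genes and on proliferation. Those outside the resting population were, taken in order, 3837 interferon cells (Ifit1 and Ifit3 at 2 UMIs or more), 8954 Il1b-high cells (Il1b at 5 UMIs or more) and 1621 Mmp8-low cells (Mmp8 under 2 UMIs).

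The study asked how the niches of the cranial sutures change with age. Untreated wild-type C57BL/6 mice of 2, 12 or 18 months (02m, 12m, 18m) were used, stated to be male, and the calvarial tissue of 6 to 8 mice was pooled for each age. Bone marrow adjacent to the suture (CBMA: sagittal suture plus adjoining parietal bone) and bone marrow distant from it (CBMD: parietal bone farther away) were captured as separate libraries of droplet 3' RNA-seq. This gave 6 libraries, 1 for each age and site. No spread between mice or pools can be measured, no test was made, and all 95% intervals below cover counting error only. Before capture, the tissue was cut, dissociated with a pestle and digested with collagenases and dispase. Erythrocytes were then lysed and dead cells depleted. The same mice may have given both sites, so agreement of the sites is not a replication of an age difference.

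Neutrophils leave the bone marrow as short-lived cells whose granules were filled in sequence during maturation, from the primary granules of promyelocytes over the secondary (specific) granules of myelocytes to the gelatinase granules of late stages. Mmp8, the neutrophil collagenase, is stored in secondary granules, and its transcript is still seen in late maturing cells after Ltf and Camp transcripts have declined. Retention in and release from the marrow are governed largely by the chemokine receptors Cxcr4 and Cxcr2.

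In the order 02m, 12m and 18m, which is kept for all values below, CBMA held 768, 221 and 689 resting cells and CBMD 493, 219 and 757. They held 10715062 UMIs together, and 2590263, 705776 and 2460846 UMIs in CBMA, with 1571246, 930344 and 2456587 UMIs in CBMD. The median cell held 2870 to 3849 UMIs. Libraries differed beyond age. Xist, which silences one X chromosome in female cells, was seen at 12m in 10.0% of CBMA and 11.2% of CBMD resting cells when each cell was thinned to 1000 UMIs. At 02m and 18m it was in 0 of 765, 685, 488 and 753 thinned cells, which allows a share of up to 0.392, 0.438, 0.615 and 0.398%. Age and sex cannot be told apart in any comparison with 12m. Resting cells with over 5 UMIs of 21 genes of other cell types made up 1.04, 86.0 and 12.3% in CBMA against 1.83, 46.6 and 13.1% in CBMD. Such cells were most frequent at 12m and least frequent at 02m in both sites. Libraries shared 161 cell barcodes among all cells, and 24 resting cells (0.763%) had a barcode that another library also held.

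Mmp8 (ENSMUSG00000005800, chr9:7558456-7568485 of GRCm38) stood at 2264, 2641 and 3088 CPM in CBMA versus 1671, 2354 and 3436 CPM in CBMD, where CPM is counts per 1000000 UMIs summed over the cells. Retnlg, a resistin-like secreted protein of neutrophils (chr16:48872621-48874496), was far more abundant at 34952, 30865 and 33380 CPM in CBMA with 28249, 31064 and 30870 CPM in CBMD. Ly6g, the surface protein used to sort mouse neutrophils (chr15:75155240-75159126), stood at 585, 589 and 394 CPM in CBMA against 397, 566 and 338 CPM in CBMD. Cxcr2, the receptor for the chemokines that draw neutrophils out of the marrow (chr1:74153989-74161246), stood at 968, 1039 and 1478 CPM in CBMA versus 937, 627 and 1455 CPM in CBMD. All 4 marker genes were present in every library.

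The label was checked in cells thinned to 1000 UMIs against T cells (at least 2 UMIs of Cd3d, Cd3e and Cd3g), which should lack neutrophil transcripts. Thinning left out 3 to 14 resting cells of a library that held fewer UMIs. Retnlg was in 98.7, 99 and 98% of resting cells in CBMA with 98.2, 99 and 99.2% in CBMD and in 5.77, 10.2 and 8.06% of T cells in CBMA against 17.6, 13.3 and 6.84% in CBMD, whose median depth was 4679 to 6249.5 UMIs before thinning. Ly6g was in 37.8, 32.9 and 24.8% of resting cells in CBMA versus 26, 39 and 24.7% in CBMD and in at most 0.926% of T cells. Cxcr2 was in 60.7, 59 and 73.7% of resting cells in CBMA with 59.2, 38 and 71.7% in CBMD and in at most 2.94% of T cells. The marker genes were thus those of neutrophils in each library. The word resting holds only in the sense of the rule. Of the 3147 cells, 1044 had no Il1b UMI, 1182 had 1 to 2 and 921 had 3 to 4, and the chemokine gene Cxcl2, which activated neutrophils make in quantity, stood at 2272, 1315 and 2387 CPM in CBMA against 6262, 4150 and 3201 CPM in CBMD.

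**Figure D1:**
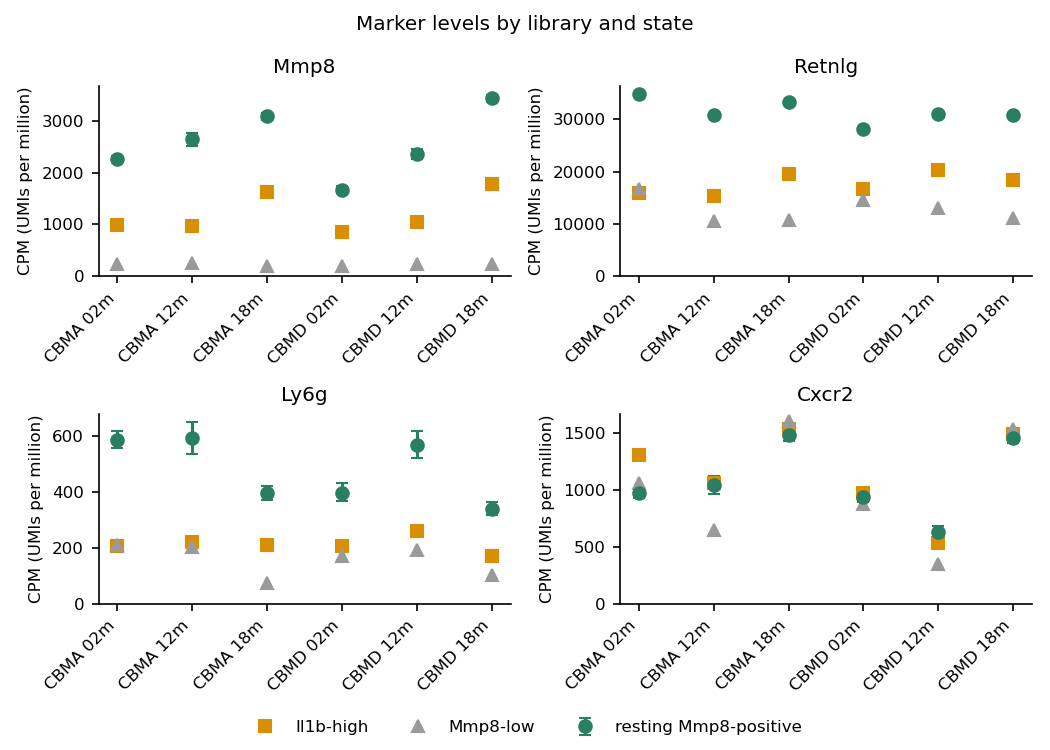
Levels of Mmp8, Retnlg, Ly6g and Cxcr2 in CPM (y axis) in each of the 6 libraries (x axis), for resting (circles, with Poisson 95% intervals for counting error), Il1b-high (squares) and Mmp8-low (triangles) mature neutrophils. Retnlg and Ly6g of resting cells sit above both other states in each library, while the Cxcr2 levels of the states cross.

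Mmp8 and Lcn2, the gene of the iron-sequestering granule protein lipocalin 2, are shown with the 250 bases before their start sites because both carry the letters TTGCNNAA, a short form of the motif bound by C/EBP factors, which drive granule genes. The sequences are from RefSeq on GRCm38.p6, written 5′ to 3′ on the strand of the gene, and capitals mark the motif. Mmp8 lies on the plus strand (chr9:7558179-7558428) and Lcn2 on the minus strand (chr2:32387740-32387989).
Mmp8: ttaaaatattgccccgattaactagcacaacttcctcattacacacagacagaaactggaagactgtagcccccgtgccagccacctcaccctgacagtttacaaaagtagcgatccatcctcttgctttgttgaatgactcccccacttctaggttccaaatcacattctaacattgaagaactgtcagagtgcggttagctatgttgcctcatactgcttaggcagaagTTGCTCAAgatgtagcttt
Lcn2: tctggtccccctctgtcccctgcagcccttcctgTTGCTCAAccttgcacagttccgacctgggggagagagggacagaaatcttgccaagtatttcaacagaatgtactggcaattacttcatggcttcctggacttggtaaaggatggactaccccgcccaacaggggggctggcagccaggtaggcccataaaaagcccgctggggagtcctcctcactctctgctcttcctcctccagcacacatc
The motif was searched on both strands. It stood in 3142 of 32851 promoters of this length (9.56%). Of the 16 promoters of the 15 secondary granule genes found in the promoter table, 5 held it (Lcn2, Anxa1, Ltf, Ngp and Mmp8). A match describes these letters and is not shown to be a bound site.

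Resting cells made up 8.95% (8.36 to 9.57), 8.13% (7.13 to 9.22) and 9.53% (8.86 to 10.2) in CBMA and 6.2% (5.68 to 6.75), 4.91% (4.29 to 5.58) and 11.4% (10.7 to 12.2) in CBMD of all cells that passed quality control. Their share of mature neutrophils was 21.9% (20.5 to 23.3), 27.8% (24.7 to 31.1) and 19.1% (17.8 to 20.4) in CBMA and 11.4% (10.5 to 12.4), 11.9% (10.4 to 13.4) and 21.8% (20.4 to 23.2) in CBMD. In CBMD both shares at 18m lay above the intervals of 02m and 12m, while in CBMA the share of mature neutrophils was lowest at 18m. The other states moved more. Interferon cells were 50.1, 1.51 and 2.61% of mature neutrophils in CBMA and 42.8, 1.57 and 2.59% in CBMD, and Il1b-high cells 18.8, 47.5 and 70.9% in CBMA and 37.8, 72.9 and 68.5% in CBMD. Of mature neutrophils without the interferon cells, resting cells made up 43.9% (41.5 to 46.2), 28.3% (25.1 to 31.6) and 19.6% (18.3 to 21) in CBMA and 19.9% (18.4 to 21.5), 12.0% (10.6 to 13.6) and 22.4% (21 to 23.8) in CBMD. On that denominator 02m was the highest age in CBMA, and 18m remained the highest in CBMD. The cuts on Ifit1 with Ifit3, on Il1b and on Mmp8 are fixed numbers of UMIs and therefore depend on the depth of a cell. Cells were also thinned to 2000 UMIs before the cuts, and cells with fewer UMIs were left out. Mature neutrophils then numbered 2927, 483 and 2996 in CBMA, against 3508, 794 and 3605 before thinning. In CBMD they numbered 3698, 1322 and 2628, against 4330, 1848 and 3474. Resting cells were 29.8, 43.3 and 28.6% of these mature neutrophils in CBMA and 19.8, 20.5 and 32.2% in CBMD, with the same highest age in each site as before thinning. The effect of leaving out shallow cells was not tested.

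**Figure D2:**
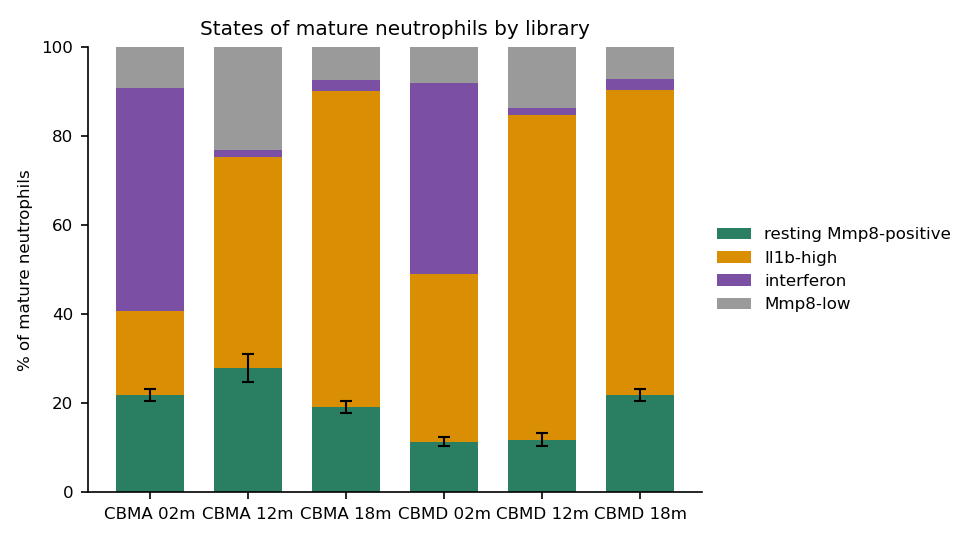
Stacked shares (y axis, % of mature neutrophils) of the resting, Il1b-high, interferon and Mmp8-low states in the 6 libraries (x axis), with exact binomial 95% intervals on the resting share for counting error. The interferon share stands at 42.8 to 50.1% at 02m and at 1.51 to 2.61% at the other ages, while the resting share runs from 11.4 to 27.8%.

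The cut at 2 Mmp8 UMIs fell within a gradient rather than at a gap. Mature neutrophils within the other cuts held 0 Mmp8 UMIs in 972 cells, 1 in 649, 2 in 459, 3 to 4 in 700, 5 to 9 in 910 and 10 or more in 1078. As the median over libraries, Retnlg stood at 15397 CPM in the cells just outside the cut (1 UMI) and 18861 CPM in those just inside (2 UMIs), against 9757 CPM at 0 UMIs and 37924 CPM at 10 or more. Ly6g stood at 229 CPM just outside, 233 CPM just inside, 145 CPM at 0 UMIs and 609 CPM at 10 or more. Lcn2 ran from 1102 to 4835 CPM and Mmp9, the gelatinase, from 1049 to 2449 CPM over the same bins, and Il1b ran the other way, from 1114 to 297 CPM. Cxcr2 lay between 880 and 1105 CPM in all 6 bins with no order. The median depth of a cell rose with the bin, from 1003 to 1885.5 UMIs over libraries at 0 Mmp8 UMIs to 3787.5 to 5121 UMIs at 10 or more, and its part in the gradient was not tested.

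**Figure D3:**
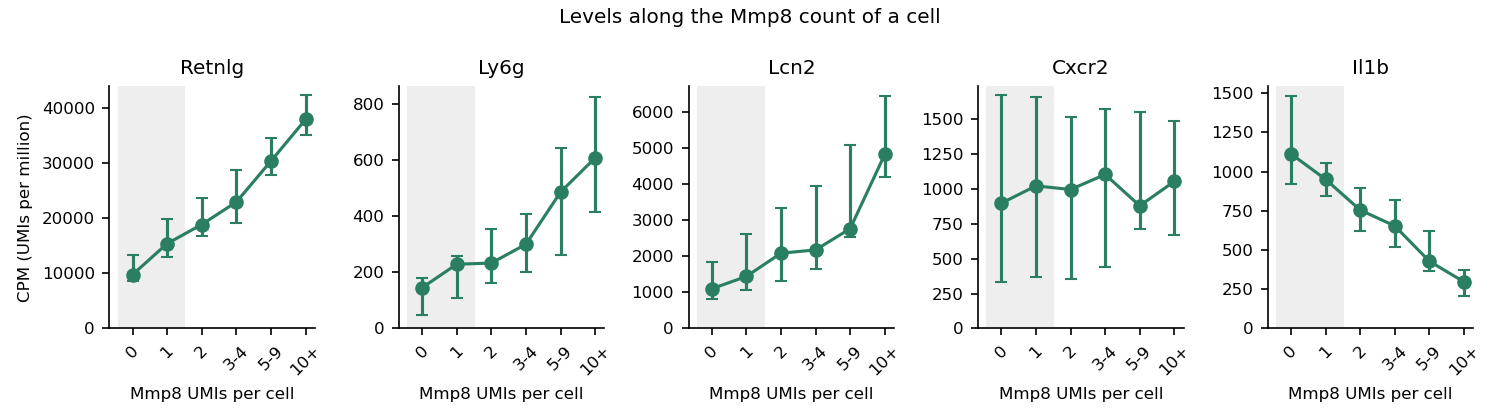
Levels of 5 genes (y axis, CPM) against the number of Mmp8 UMIs in a cell (x axis) for mature neutrophils that met the cuts on interferon genes and Il1b. Points are medians over the 6 libraries, bars run from the lowest to the highest library, and the shaded bins lie outside the resting population. Retnlg, Lcn2 and Ly6g climb with Mmp8, Il1b declines from 1114 to 297 CPM and Cxcr2 has no order.

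Across the Il1b cut the markers also changed by degrees. Retnlg stood at 33968 CPM in cells with no Il1b UMI, 28421 CPM just inside the cut (3 to 4 UMIs), 27803 CPM just outside (5 to 6 UMIs) and 20945 CPM at 7 or more. Ly6g stood at 545, 395, 371 and 260 CPM in the same cells. Within all 6 libraries, 3198 genes could be compared between resting and Il1b-high cells. Of these, 19 (0.594%) were at least 1.5-fold higher in resting cells in every library and 52 (1.63%) at least 1.5-fold lower. Since the states were cut from the same counts, these are descriptions. The higher genes included Cd177, a neutrophil surface protein anchored in the membrane by a lipid (median 377 against 137 CPM), Adpgk, a glucokinase that uses ADP (365 against 120 CPM), Ly6g (481 against 208 CPM), Ly6c2 (554 against 306 CPM) and Mmp25, a membrane-anchored protease of neutrophils (163 against 75.8 CPM). Among the lower genes were Ptgs2, the inducible cyclooxygenase (155 against 588 CPM), Tnfaip3, an inhibitor of NF-κB signaling (104 against 347 CPM), Cd14, the co-receptor for bacterial lipopolysaccharide (89.7 against 269 CPM), and the stress-induced transcription factor Atf3 (218 against 548 CPM). Of 25 inflammatory activation genes compared, 11 were lower in resting cells in every library and 0 higher. Of 12 secondary granule genes 3 were higher and 0 lower.

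Set against Mmp8-low cells, resting cells had 19 of 1528 genes higher in every library (1.24%) and 7 lower (0.458%). Retnlg, Lcn2 (3631 against 1245 CPM), Cd177 (377 against 68.1 CPM) and the antioxidant enzyme gene Mgst1 (387 against 144 CPM) were among the higher ones. The lower ones included Pim1, a survival kinase (849 against 1467 CPM), and the stress gene Gadd45b (380.3 against 773 CPM). In 4 libraries the interferon cells also allowed a comparison, and of 1746 genes 3 were higher in resting cells in each (0.172%: Adpgk, Cd177 and the nuclear envelope gene Syne1) and 29 lower (1.66%). Cxcr2 did not separate the states. Its median log2 difference between resting and other cells was -0.04 against Il1b-high cells and 0.02 against Mmp8-low cells, and its sign differed between libraries in both.

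The comparison that the design makes with the most cells is 18m against 02m within each site. A gene was compared where at least 25 UMIs were expected in the smaller library at the pooled level, and it was called where the libraries stood at least 1.5-fold apart. The 11 genes of the rule were left out of all counts. In CBMA, 952 of 5825 genes were higher at 18m (16.3%) and 652 lower (11.2%). In CBMD, 899 of 4744 genes were higher (19.0%) and 668 lower (14.1%). Among 4727 genes compared in both sites, 445 were higher in both (9.41%), 289 lower in both (6.11%) and 11 were called in opposite directions. The shared higher genes were 56.5% of those of CBMA and 49.9% of those of CBMD, and the shared lower genes 69.0 and 43.6%. The median gene stood at a log2 ratio of 0.11 in CBMA and 0.12 in CBMD. When libraries were scaled by median-of-ratios size factors it stood at -0.01 and 0.02, and the share of calls that were higher moved from 59.4 to 41.8% in CBMA and from 57.4 to 45.3% in CBMD. List medians below are therefore to be read against the median gene.

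**Figure D4:**
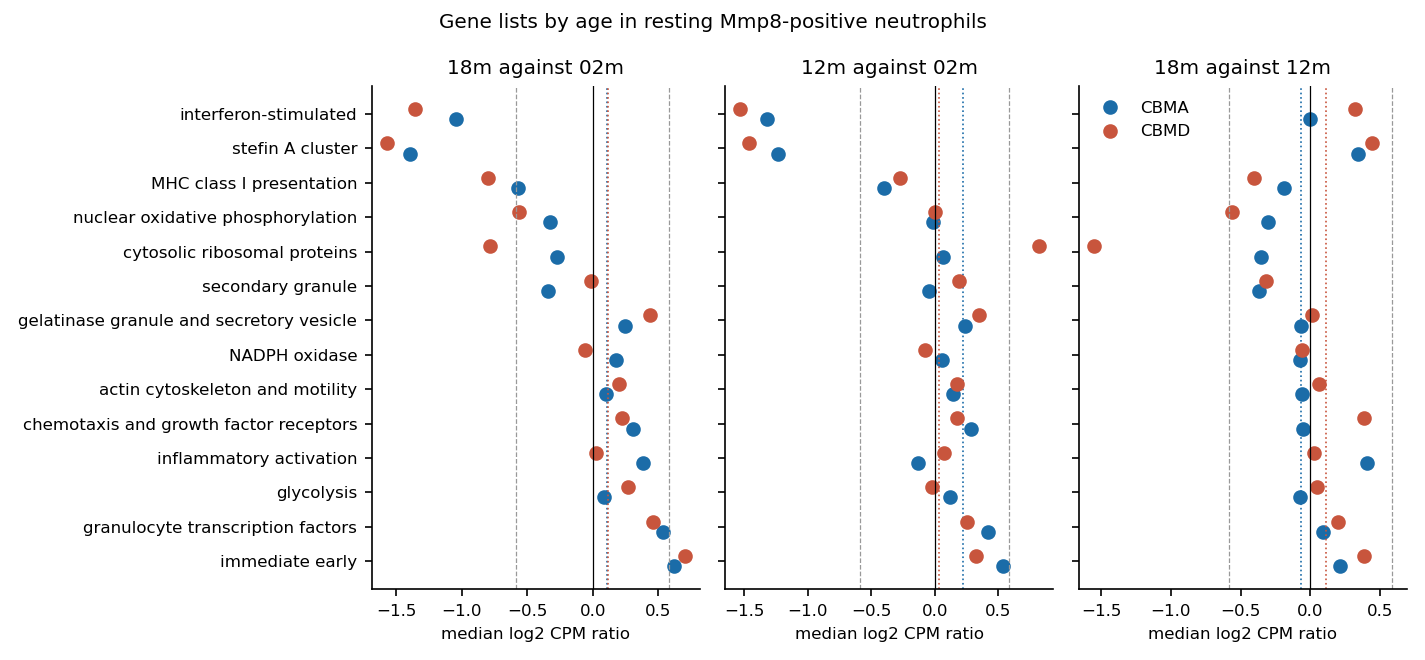
Median log2 CPM ratio (x axis) of 14 gene lists (y axis) in resting cells of CBMA and CBMD for the 3 pairs of ages, with dotted lines at the median of all genes compared and dashed lines at 1.5-fold. For 18m against 02m the interferon-stimulated and stefin A lists lie below -1 in both sites and the immediate early list at 0.62 and 0.70.

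Interferon-stimulated genes, which cells switch on when interferons bind their receptors, were lower in the older resting cells. Every cell at every age had passed the same cut on Ifit1 and Ifit3. That cut admits responding cells with under 2 UMIs of these genes, and interferon cells were most frequent at 02m. The part of such cells in the difference was not tested. In CBMA 29 of 43 compared members were lower at 18m and 1 higher, with a median log2 ratio of -1.05. In CBMD 28 of 39 were lower and 0 higher, with a median of -1.35. In both sites together 24 of 38 were lower and 0 higher, against 6.11% of all genes lower in both. The 56 members outside the rule summed to 12704, 5795 and 5786 CPM in CBMA versus 11584, 4519 and 4853 CPM in CBMD, so that 02m stood apart from the 2 older ages, which overlapped.

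Isg15, a ubiquitin-like protein (chr4:156199424-156200818), stood at 356, 55.3 and 66.2 CPM in CBMA with 322, 48.4 and 51.3 CPM in CBMD. Both 02m libraries lay above all 4 older ones. The 18m level was 0.186 (0.156 to 0.22) of that at 02m in CBMA and 0.159 (0.13 to 0.194) in CBMD, with the 95% interval of the ratio in parentheses here and below. Slfn4, a schlafen family gene of myeloid cells (chr11:83175186-83190216), stood at 1884, 424 and 434 CPM in CBMA against 1799, 365 and 455 CPM in CBMD, for ratios of 0.231 (0.216 to 0.246) and 0.253 (0.236 to 0.271). Its near relative Slfn5 (chr11:82951349-82964840) stood at 287, 55.3 and 41.4 CPM in CBMA versus 287, 29 and 55 CPM in CBMD. Oasl1 and Oasl2 belong to the oligoadenylate synthetase family. Oasl1 (chr5:114923240-114937915) stood at 121, 9.92 and 21.1 CPM in CBMA with 127, 10.7 and 17.9 CPM in CBMD. Oasl2 stood at 424, 149 and 135 CPM in CBMA against 423, 76.3 and 103 CPM in CBMD. Irf7, the transcription factor that amplifies type I interferon production, stood at 256, 72.3 and 69.1 CPM in CBMA versus 202, 73.1 and 58.6 CPM in CBMD. Each gene of this group was lower in the 4 older libraries than in both 02m libraries. Ifitm3, which blocks entry of viruses into cells, was the most abundant of those lower in both sites, at 2485, 810.5 and 819 CPM in CBMA with 2102, 918 and 611 CPM in CBMD. The members did not move alike. Samhd1, a nucleotide-degrading restriction factor, stood at 658, 829 and 733 CPM in CBMA against 619, 529.9 and 565 CPM in CBMD, with ratios of 1.11 (1.04 to 1.19) and 0.912 (0.839 to 0.991) that did not reach 1.5-fold in either site. Schlafen, Oas and Ifit genes have close copies in the genome whose reads can be shared, so the split between copies is uncertain.

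The 250 bases before the start sites of Isg15, Rsad2 (viperin, an antiviral enzyme) and Slfn5 are shown because they hold the letters GAAA repeated after any 2 bases, a form of the interferon-stimulated response element, which carries the response of many genes to type I interferon. Capitals mark the motif, found on either strand. Isg15 and Rsad2 lie on the minus strand (chr4:156200819-156201068 and chr12:26456453-26456702) and Slfn5 on the plus strand (chr11:82951852-82952101), from RefSeq on GRCm38.p6 and written 5′ to 3′. RefSeq starts Slfn5 within the span given above, which is that of the gene in the GENCODE annotation, so for the GENCODE start the Slfn5 window is not upstream.
Isg15: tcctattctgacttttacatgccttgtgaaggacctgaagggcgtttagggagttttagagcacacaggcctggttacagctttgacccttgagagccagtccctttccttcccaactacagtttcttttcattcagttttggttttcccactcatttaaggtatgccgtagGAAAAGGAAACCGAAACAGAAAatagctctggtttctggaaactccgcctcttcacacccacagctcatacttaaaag
Rsad2: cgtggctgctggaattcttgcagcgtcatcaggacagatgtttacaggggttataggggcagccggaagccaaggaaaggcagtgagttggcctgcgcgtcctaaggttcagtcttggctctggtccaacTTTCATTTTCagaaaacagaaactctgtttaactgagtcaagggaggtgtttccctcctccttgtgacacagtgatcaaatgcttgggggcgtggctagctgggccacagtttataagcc
Slfn5: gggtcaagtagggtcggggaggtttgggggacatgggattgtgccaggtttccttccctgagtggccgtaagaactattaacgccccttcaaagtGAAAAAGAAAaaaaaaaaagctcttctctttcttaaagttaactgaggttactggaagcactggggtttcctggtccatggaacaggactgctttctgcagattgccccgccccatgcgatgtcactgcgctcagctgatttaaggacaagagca
In Isg15 the marked letters cover 22 bases because matches overlap. The motif stood in 978 of 32851 promoters (2.98%). It stood in 23 of the 50 promoters (46%) of the 43 list members that the promoter table held out of 58. Of the 24 members lower in both sites 18 were found, with the motif in 10 of their 19 promoters (52.6%). Oasl1 had no match in this window. Among the 31 promoters of 25 immediate early genes 1 (Fosl2) had a match.

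Ifi27l2a, a small interferon-induced gene named by the size of its difference, stood at 4814, 269 and 252 CPM in CBMA versus 5341, 447 and 182 CPM in CBMD, a ratio of 0.0523 (0.0482 to 0.0567) in CBMA and 0.034 (0.0308 to 0.0374) in CBMD. In thinned cells it was in 76.9, 11.4 and 13.9% of resting cells in CBMA with 81.8, 18.5 and 10.2% in CBMD, and in 66.3, 16.7 and 9.44% of T cells in CBMA against 58.8, 18.7 and 8.37% in CBMD. Isg15 was in 29.5, 6.19 and 5.84% of resting cells in CBMA versus 25, 3.9 and 4.78% in CBMD and in 26, 6.48 and 3.33% of T cells in CBMA with 14.7, 3.63 and 3.42% in CBMD. For both genes the T cells also stood higher at 02m than at the older ages. T cells can make these transcripts, so transcripts from outside the cell cannot be told apart from the cells' own. Slfn4 differed from this. It was in 76.5, 34.3 and 32.3% of resting cells in CBMA against 74.2, 31.7 and 34.4% in CBMD and in at most 6.25% of T cells. Oasl2 was in 33.3, 12.4 and 10.2% of resting cells in CBMA and 33.6, 7.32 and 7.97% in CBMD, and in at most 4.41% of T cells. Before thinning Slfn4 was in 95.8, 60.6 and 62% of resting cells in CBMA versus 93.9, 62.6 and 60.0% in CBMD, Isg15 in 53.3, 12.2 and 13.8% of resting cells in CBMA with 49.1, 11 and 10.3% in CBMD and Oasl2 in 65.2, 27.6 and 25.4% of resting cells in CBMA against 63.5, 21.9 and 18.1% in CBMD.

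Other states of mature neutrophils of the same libraries give the following medians for the interferon-stimulated list at 18m against 02m. In Il1b-high cells it was -1.29 in both sites, where the median gene stood at -0.02 in both. In Mmp8-low cells it was -1.42 and -1.44, where the median gene stood at 0.19 in both sites. In the interferon state, which was cut on members of this list, it was 0.21 and 0.24, where the median gene stood at 0.10 and -0.01. The differences between states were not tested.

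Genes of MHC class I presentation, many of which interferon also induces, were lower in part. In CBMA 7 of 17 compared members were lower and 0 higher (median -0.57), and in CBMD 11 of 15 were lower and 0 higher (median -0.80), where 11.2 and 14.1% of all genes were lower. H2-K1, a classical class I heavy chain, stood at 908, 728 and 548 CPM in CBMA versus 797, 757 and 382 CPM in CBMD. B2m, the light chain shared by class I molecules, stood at 1418, 837 and 953 CPM in CBMA with 1260, 1165 and 779 CPM in CBMD, with ratios of 0.672 (0.638 to 0.708) and 0.618 (0.58 to 0.659), of which only the value in CBMD reached 1.5-fold lower. Tap1, a subunit of the peptide transporter, stood at 121, 90.7 and 74.8 CPM in CBMA against 83.4, 47.3 and 52.9 CPM in CBMD. H2-Q and H2-T genes are near copies of each other and their separate values are uncertain.

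The stefin A genes, a cluster of cysteine protease inhibitors on chromosome 16 that myeloid cells express, were lower at both older ages. At 18m CBMA had 4 of 6 compared members lower and CBMD 5 of 6, 0 were higher, and the medians were -1.40 and -1.57. Of all genes 11.2% were lower in CBMA and 14.1% in CBMD. BC100530 stood at 302, 29.8 and 46.3 CPM in CBMA versus 309, 37.6 and 77.8 CPM in CBMD. Stfa1 stood at 369, 143 and 136 CPM in CBMA with 560.1, 26.9 and 161 CPM in CBMD. Stfa3 stood at 84.9, 39.7 and 33.3 CPM in CBMA against 99.9, 32.2 and 31.8 CPM in CBMD. All 3 genes were lower in the 4 older libraries than in both 02m libraries. Stfa2l1 stood at 884, 558 and 802 CPM in CBMA versus 1139, 657 and 804 CPM in CBMD, with ratios of 0.908 (0.854 to 0.964) and 0.706 (0.662 to 0.754) that did not reach 1.5-fold. In CBMD_12m 1 cell held 57.1% of the BC100530 UMIs. These genes are tandem copies, and reads could be split between them. The summed level of the 9 genes was 3080, 1784 and 2168 CPM in CBMA with 4074, 1577 and 2256 CPM in CBMD, highest at 02m in both sites. Il1b-high cells gave medians of -1.62 and -1.51.

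Immediate early genes, which respond within minutes to growth factors, stress or cytokines, were higher in the older resting cells. At 18m 15 of 28 compared members were higher and 3 lower in CBMA (median 0.62), and 15 of 29 higher and 5 lower in CBMD (median 0.70). In both sites together 11 of 28 were higher and 3 lower, against 9.41 and 6.11% of all genes. Summed, the list stood at 13549, 20066 and 22994 CPM in CBMA against 16959, 23400 and 29587 CPM in CBMD, with no overlap between 18m and 02m within or across sites. The other states had similar medians at 18m against 02m. They were 0.55 and 0.58 in Il1b-high cells, 0.69 and 0.75 in Mmp8-low cells and 0.82 and 0.69 in interferon cells. The part of tissue dissociation and digestion in the levels of these genes was not tested.

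Rhob, a small GTPase (chr12:8497661-8500009), stood at 131, 480.3 and 565 CPM in CBMA versus 115, 573 and 922 CPM in CBMD, for ratios of 4.3 (3.82 to 4.86) and 8.05 (6.92 to 9.42). Klf2, a transcription factor that restrains activation of myeloid cells and is also counted among the granulocyte factors (chr8:72319033-72321656), stood at 476, 1309 and 1190 CPM in CBMA with 365, 1692 and 1962 CPM in CBMD, for 2.5 (2.34 to 2.68) and 5.37 (4.93 to 5.87). Both genes were at least 2-fold higher at 12m and 18m than at 02m in each site. Fos, a subunit of the AP-1 transcription factor, stood at 798, 1366 and 1734 CPM in CBMA against 1123, 1301 and 2177 CPM in CBMD, and its partner Jun at 1124, 820.4 and 2033 CPM in CBMA versus 1442, 1319 and 2897 CPM in CBMD. Jun at 12m lay below 02m in both sites. Dusp1, a phosphatase that switches off stress kinases, stood at 762, 2013 and 1683 CPM in CBMA with 1155, 2314 and 2030 CPM in CBMD, and the nuclear receptor gene Nr4a1 at 119.7, 391 and 399 CPM in CBMA against 242, 565 and 493 CPM in CBMD. Some members went the other way, with Egr3 at 35.5, 41.1 and 21.5 CPM in CBMA versus 50.9, 35.5 and 18.7 CPM in CBMD and Dusp2 at 19.7, 21.3 and 13 CPM in CBMA with 119, 32.2 and 19.9 CPM in CBMD. Fos was in 49.8, 71.4 and 74.7% of thinned resting cells in CBMA against 60.0, 65.4 and 79.7% in CBMD. It was also in 11.5, 37 and 29.7% of T cells in CBMA versus 17.6, 30.8 and 42.6% in CBMD. T cells thus differed with age in the same direction in both sites, and whether the resting cells shared that difference through transcripts from outside was not tested.

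Among 18 granulocyte transcription factors compared in both sites, 6 were higher at 18m in both and 1 lower, against 9.41 and 6.11% of all genes. The lower count is near the background. Cebpb, the C/EBP factor of emergency granulopoiesis, stood at 664, 1125 and 1286 CPM in CBMA with 873, 1638 and 1438 CPM in CBMD, and Mxd1, a repressor that accompanies terminal differentiation of granulocytes, at 996, 1532 and 1608 CPM in CBMA against 948, 1906 and 1674 CPM in CBMD. Hif1a, the oxygen-responsive factor, stood at 84.9, 106 and 166 CPM in CBMA versus 94.2, 135 and 161 CPM in CBMD. In each of these 3 genes both 18m libraries lay above both 02m libraries. Spi1, the master regulator of myeloid cells, stood at 798, 751 and 683 CPM in CBMA with 743, 565 and 644 CPM in CBMD and Cebpe, required for secondary granules, at 16.5 to 48.2 CPM over libraries. Neither Spi1 nor Cebpe was called between 18m and 02m. Irf5, an interferon regulatory factor, was lower, at 36.7, 38.3 and 19.1 CPM in CBMA against 35.6, 24.7 and 19.5 CPM in CBMD.

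**Figure D5:**
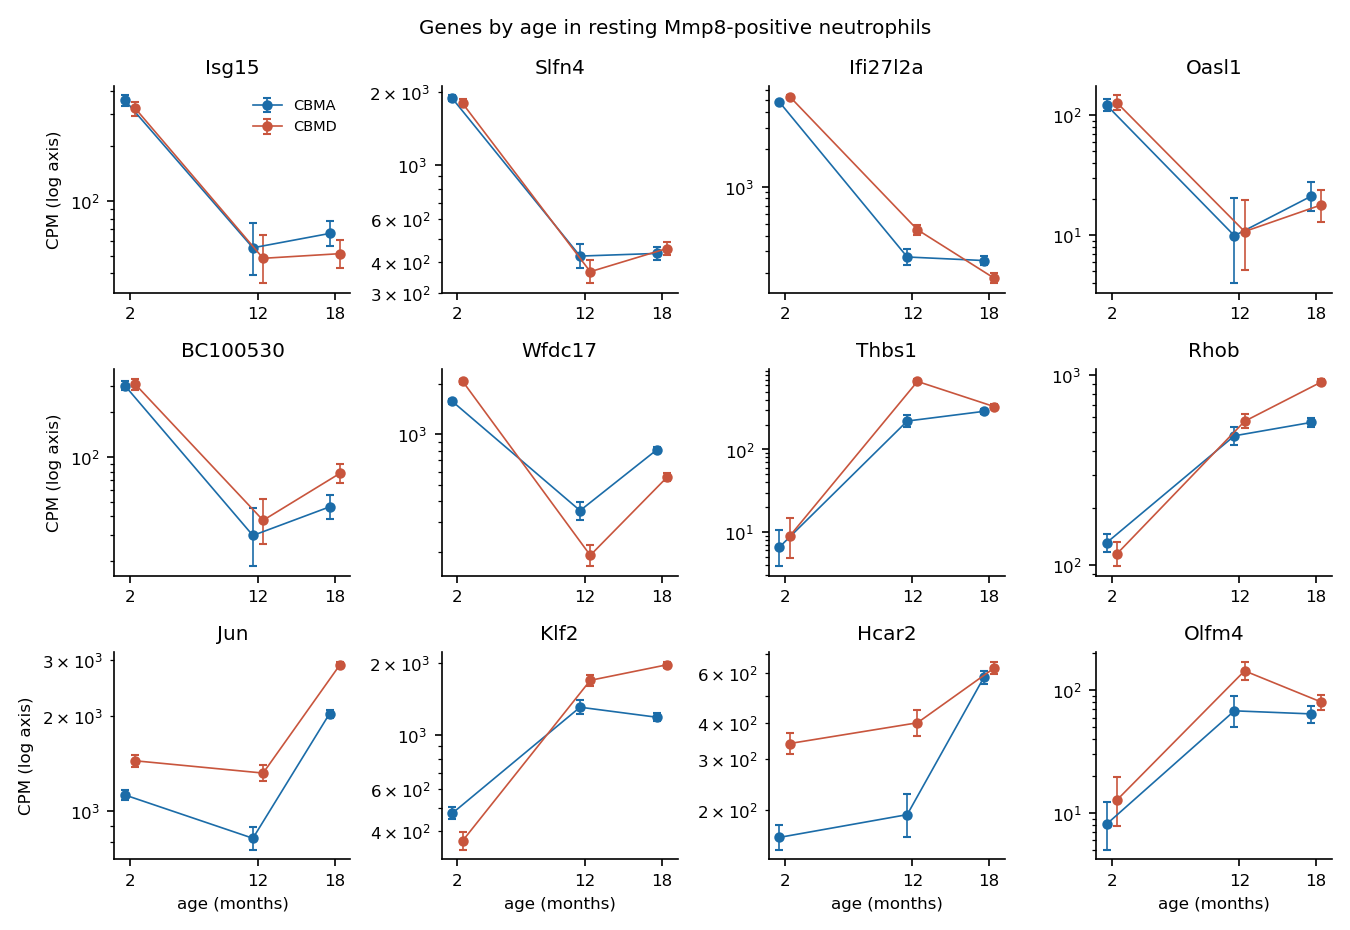
Levels (y axes, CPM on log scales that differ between panels) of 12 genes in resting cells by age in months (x axis) in CBMA and CBMD, with exact Poisson 95% intervals for counting error. Isg15 and Slfn4 are highest at 02m, Rhob and Klf2 lowest at 02m, and Jun highest at 18m in both sites.

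Few receptors and adhesion molecules of marrow release were called. Of 12 chemotaxis and growth factor receptors compared in both sites, 2 were higher at 18m in both, Cxcr2 and Ccr1, and 0 lower. Of all genes 9.41% were higher in both and 6.11% lower. The ratio of Cxcr2 was 1.53 (1.45 to 1.61) in CBMA and 1.55 (1.46 to 1.65) in CBMD, close to the threshold, and it was under 1.5-fold in both sites with each other scaling tried (log2 0.49 to 0.54 in CBMA and 0.53 to 0.58 in CBMD). Ccr1, a receptor for inflammatory CC chemokines, stood at 499.6, 665 and 829 CPM in CBMA versus 518, 664 and 862 CPM in CBMD. Cxcr4, which holds neutrophils in the marrow, stood at 261, 371 and 271 CPM in CBMA with 318, 535 and 355 CPM in CBMD with ratios of 1.04 (0.935 to 1.16) and 1.11 (0.997 to 1.25). Csf3r, the G-CSF receptor, stood at 1162, 1625 and 1556 CPM in CBMA against 1310, 886 and 1546 CPM in CBMD and was called in neither site. Cd44, a hyaluronan receptor, stood at 426, 697 and 660.3 CPM in CBMA versus 405, 639.5 and 735 CPM in CBMD. Cd44, Rab27a and Actg1 had their smaller ratio at 1.51 to 1.55, as near to the threshold as Cxcr2.

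Of the primary granule genes, 3 of 6 compared were lower at 18m and 1 higher in CBMA (median -0.64), and 3 of 5 were lower and 0 higher in CBMD (median -0.70). Of all genes 11.2% were lower in CBMA and 14.1% in CBMD, and 16.3 and 19.0% were higher. Elane and Prtn3 were lower in both sites. In CBMA Elane was in 5.88 and 22.4% of thinned resting cells at 02m and 12m and in 5.29 and 24.1% of T cells. No expression by resting cells is read from Elane. Of 13 secondary granule genes compared, 0 were higher and 4 lower at 18m in CBMA (median -0.34, against 11.2% of all genes lower), and 3 were higher and 1 lower in CBMD (median -0.01). Lcn2 stood at 5153, 3051 and 3418 CPM in CBMA with 3744, 3983 and 3519 CPM in CBMD and Lyz2, lysozyme, at 5255, 4827 and 4724 CPM in CBMA against 3765, 5688 and 4151 CPM in CBMD. Chil3, a chitinase-like protein of earlier precursors, was lower at 18m in both sites, at 234, 238 and 54.5 CPM in CBMA versus 225, 225 and 92.4 CPM in CBMD, but 1 cell held 48.3% of its UMIs in CBMD_12m. Gelatinase granule and secretory vesicle genes had medians of 0.25 and 0.44, with 1 of 14 members (Rab27a, a GTPase of granule release) higher in both sites. That count is near the background of 9.41% of all genes higher in both. Mmp9 stood at 2121, 2980 and 2081 CPM in CBMA with 1605, 2101 and 2053 CPM in CBMD. Of the marker genes, Retnlg stood at 0.955 (0.946 to 0.964) and 1.09 (1.08 to 1.11) of its 02m level. Ly6g stood at 0.673 (0.62 to 0.73) and 0.852 (0.767 to 0.947), and in CBMA it was past 1.5-fold lower with each of the other scalings (log2 -0.70 to -0.60). Of 24 genes of the actin cytoskeleton and motility, Actg1, which encodes gamma-actin, was higher in both sites and Tmsb10, an actin-sequestering thymosin, lower, with ratios of 0.315 (0.282 to 0.35) and 0.271 (0.244 to 0.301). Of all genes 9.41% were higher in both sites and 6.11% lower, so neither count stood above the background.

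The inflammatory activation list was uneven. In CBMA 11 of 30 compared members were higher at 18m and 2 lower, and in CBMD 5 of 29 higher and 3 lower (medians 0.39 and 0.03). Of all genes 16.3% were higher and 11.2% lower in CBMA. In CBMD, where 19.0% were higher and 14.1% lower, the list was near the background. Hcar2, the receptor for ketone bodies and niacin (chr5:123863570-123865499), stood at 161, 193 and 578 CPM in CBMA against 340.5, 402 and 623 CPM in CBMD, for ratios of 3.6 (3.23 to 4.03) and 1.83 (1.66 to 2.02). In thinned cells it was in 15.2, 16.7 and 39.4% of resting cells in CBMA versus 25.8, 32.2 and 43% in CBMD and in at most 1.14% of T cells. Acod1, which makes the antimicrobial metabolite itaconate, stood at 62.2, 108 and 242 CPM in CBMA with 191, 295 and 347 CPM in CBMD. Osm, a cytokine of the interleukin-6 family, stood at 123, 526 and 490.1 CPM in CBMA against 253, 462 and 519 CPM in CBMD. Higher in both sites at 18m were Ccl3, Osm, Ptgs2, Acod1 and Hcar2. Ier3, a stress-induced survival gene, was lower in both, at 893, 241 and 419 CPM in CBMA versus 1223, 293 and 538 CPM in CBMD. Cxcl2, whose values are given above, had ratios of 1.05 (1.01 to 1.09) and 0.511 (0.496 to 0.527), so it was called lower in CBMD alone.

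Genes with the largest shared differences were named by a fixed rule of size, leaving out unnamed and mitochondrially encoded genes. Thbs1, the adhesive glycoprotein thrombospondin 1 (chr2:118111876-118127133), stood at 6.56, 221 and 289.7 CPM in CBMA with 8.91, 667 and 331 CPM in CBMD. The 02m levels rest on 17 and 14 UMIs, of which 1 cell held 35.3 and 21.4%, and the ratios were 44.1 (27.4 to 76.2) and 37.1 (22 to 68.2). In thinned cells it was in 0.261, 12.9 and 14.2% of resting cells in CBMA against 1.23, 31.7 and 17.5% in CBMD and in at most 3.93% of T cells. Olfm4, a granule glycoprotein found in a subset of neutrophils, stood at 8.11, 68 and 64.2 CPM in CBMA versus 12.7, 144 and 80.2 CPM in CBMD and was in at most 6.83% of thinned cells of any library. Mpp7 was also among the higher genes. On the lower side beside interferon-induced genes (Ifi27l2a, Xaf1, Ifit3b, Oasl1, Isg15 and Zbp1) stood Rn7sk, the noncoding 7SK RNA that controls transcription elongation, at 203, 36.8 and 9.35 CPM in CBMA with 230.4, 12.9 and 4.88 CPM in CBMD, the linker histone gene Hist1h1e at 235, 59.5 and 22.4 CPM in CBMA against 129.8, 64.5 and 21.2 CPM in CBMD, Tlcd2 at 104, 12.8 and 10.2 CPM in CBMA versus 71.9, 8.6 and 7.33 CPM in CBMD and the glutathione transferase gene Gstp3 at 41.3, 2.83 and 5.69 CPM in CBMA with 59.8, 12.9 and 4.07 CPM in CBMD. Ifit3b is a near copy of Ifit3, which the rule used, and gives no separate support.

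The remaining 7 of the 10 highest genes were immunoglobulin and MHC class II genes (Ighg2b, Ighg2c, Jchain, Igkc, H2-Eb1, Cd74 and H2-Aa), which neutrophils are not known to make in quantity. Igkc, the kappa light chain of antibodies, stood at 58.3, 1876 and 315 CPM in CBMA against 15.3, 655 and 2905 CPM in CBMD. It was in 5.23, 80.5 and 28% of thinned resting cells in CBMA versus 1.84, 41.5 and 38.2% in CBMD and in 7.21, 68.5 and 23.3% of T cells in CBMA with 0, 33.5 and 28.1% in CBMD. Cd74, the invariant chain of class II molecules, was in 1.83, 9.52 and 5.26% of resting cells in CBMA against 2.66, 10.2 and 6.11% in CBMD and in 1.92, 9.26 and 5.28% of T cells in CBMA versus 7.35, 9.37 and 4.94% in CBMD. In CBMD_02m Igkc was in 0 of 68 T cells, which allows a share of up to 4.41%. T cells, which should lack Igkc, held it in shares that followed those of the resting cells from library to library, although the resting cells stood higher at 12m and 18m. No expression by neutrophils is read from these genes. The B lineage markers of which Igkc is 1 summed to 148, 2973 and 612 CPM in CBMA with 102, 1274 and 3762 CPM in CBMD, and all 3 compared were higher at 18m in both sites. Of the 12 B lineage markers 5 to 12 were detected in a library, and Mzb1, which marks plasma cells, was at 0 in 5 of the 6 libraries. Macrophage and dendritic markers summed to 88.8, 239 and 784 CPM in CBMA against 81.5, 1165 and 391 CPM in CBMD and erythroid markers to 5757, 194 and 1487 CPM in CBMA versus 40.1, 469 and 149.8 CPM in CBMD, with 9 to 12 of 12 and 5 to 8 of 8 genes detected. Siglech was at 0 in 5 libraries. Basophil and mast markers summed to 8.88, 87.8 and 17.1 CPM in CBMA with 1.27, 1074 and 26.1 CPM in CBMD, and 2 to 8 of 8 genes were detected. The part of these transcripts in the age differences was not tested.

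Of the 13 protein-coding genes of the mitochondrial genome 8 were compared, and 6 were higher at 18m and 0 lower in each site (medians 0.82 and 1.56). Of all genes 16.3% were higher in CBMA and 19.0% in CBMD. The 13 genes summed to 1368, 4327 and 2355 CPM in CBMA with 1101, 2349 and 2779 CPM in CBMD, lowest at 02m in both. All mitochondrially encoded UMIs, ribosomal RNA included, did not follow them. They made up 1.08, 0.696 and 1.19% of the UMIs of the median resting cell in CBMA versus 1.38, 0.472 and 1.35% in CBMD, lowest at 12m and close together at 02m and 18m. Without the resting cells that held over 5 UMIs of other cell types the medians of the protein-coding genes were 0.48 and 1.32. Cytosolic ribosomal protein genes summed to 27291, 28780 and 23481 CPM in CBMA against 33907, 53495 and 20894 CPM in CBMD. At 18m CBMA had 11 of 81 lower and CBMD 55 of 80 (medians -0.27 and -0.78), where 11.2 and 14.1% of all genes were lower. The count of CBMA is near that background, but its median lay below that of all genes (0.11). It was lower still without the resting cells that held over 5 UMIs of other cell types. In both sites 11 of 80 were lower, against 6.11% of all genes. CBMD_12m stood apart at the top and gave 59 of 80 members higher than 02m (median 0.82, against 15.6% of all genes higher), while in CBMA_12m 4 of 79 were higher (median 0.07, against 21.3%). With the mean over cells in place of summed UMIs the value of CBMD was 0.47. Nuclear genes of oxidative phosphorylation had medians of -0.33 and -0.56 at 18m.

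For 12m against 02m, 649 of 3043 genes were higher (21.3%) and 249 lower (8.18%) in CBMA, and 567 of 3642 higher (15.6%) and 472 lower (13%) in CBMD. In both sites 190 of 3006 were higher (6.32%), 149 lower (4.96%) and 28 opposite. With size factors the calls of CBMA turned to 219 higher and 496 lower. The interferon-stimulated list was already low at 12m, with 21 of 31 members compared in both sites lower in both and 0 higher, and medians of -1.32 and -1.53. Stefin A genes were lower as well, 5 of 6 in both sites. Of 24 immediate early genes 7 were higher in both and 1 (Socs3) lower. Thbs1, Igkc, Igha, Ighm, Rhob and Golim4 headed the higher genes and Ifit3b, Ifi27l2a, Oasl1, BC100530, Tlcd2 and Isg15 the lower ones. Cd177 at 12m stood at 1.67 (1.47 to 1.9) of its 02m level in CBMA and 2.9 (2.46 to 3.42) in CBMD. Cybb, the catalytic subunit of the phagocyte oxidase that makes the oxidative burst, stood at 191, 368 and 223 CPM in CBMA versus 121, 339 and 299.6 CPM in CBMD, higher at 12m in both sites.

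Between 12m and 18m fewer genes stood apart in CBMA, 200 of 3116 higher (6.42%) and 303 lower (9.72%), while CBMD gave 629 of 3614 higher (17.4%) and 429 lower (11.9%). In both sites 82 of 3087 were higher (2.66%), 77 lower (2.49%) and 34 opposite. The interferon-stimulated list had medians of -0.00 and 0.32, with 1 of 23 members (Ifitm1) higher in both and 0 lower. The primary granule genes Elane, Prtn3 and Mpo, proteases and peroxidase of promyelocytes, headed the lower genes. The shares of Elane in CBMA at 02m and 12m were near those of T cells, as given above. Mpo stood at 77.2, 419 and 52.8 CPM in CBMA with 53.5, 139.7 and 33 CPM in CBMD and was in 9.15, 40.0 and 5.55% of thinned resting cells in CBMA against 6.56, 9.27 and 3.72% in CBMD and 6.25, 34.3 and 5.28% of T cells in CBMA versus 1.47, 6.95 and 4.56% in CBMD, so no expression by resting cells is read from it. Also lower were Hist1h2ap and Snrpg. Wfdc17, a small protein with a protease inhibitor fold, was among the higher genes, together with Lars2, BC106175, Prr5l, Cpt1a and Jun. Wfdc17 stood at 1573, 351 and 809 CPM in CBMA with 2077, 190.3 and 555 CPM in CBMD, lowest at 12m and highest at 02m in both sites, and T cells held it in at most 7.35% of thinned cells.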

How the data were processed

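The deposited files hold raw counts, whole UMIs per gene and cell barcode for 6 libraries and 55450 genes, which the authors made from 10x 3' reads with bcl2fastq and Cell Ranger on GRCm38. Each library was 1 pool of mice for an age and site, so no test was made and no p-value is given. UMIs of resting cells were summed per library and divided by the library's total over these cells (CPM). Ratios carry exact 95% intervals from 2 Poisson sums, shares exact Clopper-Pearson intervals, and a sum of 0 was set at 3 counts in list medians. Where 0 thinned cells held a gene, the share said to be allowed is 3 divided by the number of cells. A gene was compared at 25 or more expected UMIs in the smaller library and called at 1.5-fold. Shares of cells with a UMI were taken after thinning to 1000 UMIs, leaving out shallower cells. Doublets were kept, and leaving out the cells with the highest scores of Scrublet (in scanpy), up to 0.8% per 1000 barcodes, was an alternative.

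Genes named are the 4 markers, members of 36 gene lists and, per pair of ages, up to 10 (18m against 02m) or 6 genes in each direction. These had the largest smaller log2 ratio of the sites among genes called the same way in both, with at least 20 CPM in 1 library of each site, leaving out the genes of the rule, mitochondrially encoded and unnamed genes. A few further genes, such as those named as examples of a difference between states, were chosen after their values were seen. The members and the lists were chosen with earlier results of these data known. The 21 genes of other cell types were immunoglobulin, MHC class II, C1q, hemoglobin, collagen, basophil and T-cell genes. Promoters were read from RefSeq for GRCm38.p6. Python 3.11.15, numpy 2.4.6, pandas 2.3.3, scipy 1.17.1, scanpy 1.11.5 and matplotlib 3.10.9 were used, and the counting scripts were tested on simulated data. Results for some genes are not reported here.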

Additional observations from a re-analysis of the deposited data

Results flagged for a closer look

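Some values moved in opposite directions in the 2 sites under the same pair of ages, and none of these differences was tested, since each site had 1 library per age. The resting share of mature neutrophils differed by -2.78 percentage points in CBMA and 10.4 in CBMD for 18m minus 02m, and by -8.72 and 9.94 points for 18m minus 12m.

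Markers of other cell types within resting cells also went opposite ways. The median log2 ratio of erythroid markers was -1.97 in CBMA and 2.22 in CBMD at 18m against 02m, -5.18 and 4.01 at 12m against 02m, and 3.12 and -1.81 at 18m against 12m. For 18m against 12m, B lineage markers stood at -2.48 and 2.15, and macrophage and dendritic markers at 1.89 and -1.81.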

How the results depend on the processing

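No paired analysis was possible because each age and site had 1 library. With Mmp8 at 1 UMI or more, resting cells were 10.8, 10.5 and 10.9% of all cells in CBMA and 7.93, 6.81 and 13% in CBMD, and 26.3, 36.0 and 21.9% and 14.6, 16.5 and 24.9% of mature neutrophils. Thinned to 2000 UMIs, with shallower cells left out, they were 11.9, 11.9 and 14.0% and 11.1, 8.16 and 16.1% of the cells kept, and 29.8, 43.3 and 28.6% and 19.8, 20.5 and 32.2% of the mature neutrophils among them. With at least 10 expected UMIs, 1512 genes were higher and 1180 lower at 18m against 02m in CBMA, 1346 and 1233 in CBMD. For 12m against 02m these were 1334 and 465 in CBMA, 1105 and 887 in CBMD, and for 18m against 12m 396 and 876, 959 and 947. With at least 100, the counts were 452 and 188, 423 and 235, then 143 and 93, 195 and 144, then 62 and 44, 233 and 150. These filters change how many genes are compared. Size factors gave 219 higher and 496 lower in CBMA at 12m against 02m (30.6% of calls higher, 72.3% with total UMIs) and 372 and 146 at 18m against 12m (71.8%, 39.8% with total UMIs). In CBMD at 12m against 02m they gave 43.6% higher in place of 54.6%.

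An alternative chosen after seeing the data left out resting cells with over 5 UMIs of other cell types, for 18m against 02m. It turned the erythroid median in CBMA from -1.97 to 0.61 and took H2-Eb1 in CBMD from 3.14 to 0.57 (log2), and the ribosomal median in CBMA from -0.27 to -0.69. The immediate early median in CBMA was 0.50 with size factors. The single genes followed under the alternatives were mostly those named for a large difference. Most of their ratios thus lay well past 1.5-fold by choice, and the next counts do not describe genes in general. Of 682 log2 ratios of these single genes under all alternatives, 666 stayed on their side of 1.5-fold, 8 went past it and 8 came under it. The cause was not tested. Depth limits mostly 12m, where 221 and 219 resting cells allowed 3043 to 3642 genes to be compared.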
